A study of Homo sapiens with 5 samples.

Results

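hsa-miR-203a-3p and hsa-miR-203a-5p are the mature products of the 2 arms of a single human hairpin, MIR203A, and were followed here through attached and detached cultures of MCF10A. This human breast epithelial line is immortalized but does not form tumors. They were selected on their own read counts in these libraries, because both stood higher in detached than in attached cells. That contrast is therefore given below as a description, without a test. Any row named for miR-203b, the product of the opposite strand of the same locus, was added, which made 4 rows of the 2565 human miRNA rows in the deposited tables. Of these 4, the 2 miR-203a rows passed the filter on low counts (697 rows passed in all), and the 2 miR-203b rows did not. miR-203a-5p passed it only through its counts in detached cells.

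The study compared small RNAs of cells growing on uncoated culture plastic (attached, 3 libraries) with those of cells held for 24 h on plastic coated with poly(2-hydroxyethyl methacrylate), which prevents adhesion (detached, 2 libraries). Per the labels, all cells shared the same medium with donor horse serum, epidermal growth factor, insulin, cholera toxin and hydrocortisone, and RNAs of 18 to 24 nt were cut from a gel before sequencing. The series' design text gives 24 h for both cultures, whereas the time label of the attached libraries is 0 h, so the age of the attached cultures is uncertain. Nothing in the labels states that replicates came from separate cultures. The spread between libraries, with every p-value that rests on it, may therefore be technical.

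miRNAs are cut from hairpin precursors by Drosha and Dicer. One strand of the resulting duplex, the guide, is usually kept in an Argonaute protein, and the other, the passenger, is usually lost. Bases 2 to 8 of the guide, its seed, pair with target mRNAs. The 3p arm is the recognised guide of miR-203a. In stratified epithelia it is low in the proliferating basal layer and rises as cells leave it, where it represses TP63, the transcription factor that keeps basal cells proliferative. In mammary cells it is also known as a repressor of SNAI2, a driver of mesenchymal traits. MCF10A cells have basal features.

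The sequences are shown because the identity of the 4 rows, and what could be confused between them, rests on them. They are the RefSeq mature sequences (GRCh38.p14, all 4 rows matched), 5′ to 3′, with the seed in capitals.
hsa-miR-203a-3p: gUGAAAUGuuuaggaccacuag
hsa-miR-203a-5p: aGUGGUUCuuaacaguucaacaguu
hsa-miR-203b-3p: uUGAACUGuuaagaaccacugga
hsa-miR-203b-5p: uAGUGGUCcuaaacauuucaca

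No seed is shared among the 4, and no other mature sequence in the RefSeq table carries the seed of either miR-203a arm or of miR-203b-3p. The seed of miR-203b-5p is shared with hsa-miR-6718-5p, which had 0 counts in all 5 libraries. miR-203a-3p is 22 nt long and miR-203a-5p 25 nt, which is 1 nt above the upper end of the size selection.

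The 2 miR-203a arms are shown in capitals in the MIR203A hairpin, which lies on the plus strand of chromosome 14 from 104117405 to 104117514 (GRCh38), the interval that GENCODE 29 also gives. 
MIR203A: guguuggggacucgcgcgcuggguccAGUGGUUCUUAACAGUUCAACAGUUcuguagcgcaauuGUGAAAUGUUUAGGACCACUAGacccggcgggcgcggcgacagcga

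The 5p arm occupies hairpin bases 27 to 51 and the 3p arm bases 65 to 86, with 13 bases between them. In the fold predicted by RNAfold, 18 of the 22 bases of the 3p arm paired with the 5p arm. GENCODE 29 places no protein-coding gene or long noncoding RNA over the hairpin. The nearest protein-coding gene, ASPG, ends 1824 bp away on the same strand. On the other side the antisense gene AL359399.1, on the minus strand, lies 19636 bp away, and the protein-coding KIF26A begins 21209 bp away. MIR203B lies inside the same interval on the minus strand, from 104117418 to 104117503. miR-203b-5p is the exact antisense of miR-203a-3p over 21 nt, and miR-203b-3p that of miR-203a-5p over 20 nt, so only the strand of a read tells the hairpins apart. Whether the counting used strand is not given in the sources used here.

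Counts on human miRNAs ran from 8805009 to 15793173 per library, and levels are given as counts per 1000000 of that total (CPM). Attached replicate 2 stood apart: its Spearman correlation with the other libraries over the 697 tested rows was 0.812 to 0.857, against 0.927 to 0.961 among the other 4. The label of an epithelial culture was checked on markers. miR-205-5p and miR-200c-3p, both largely epithelial, were abundant in all 5 libraries. They were lowest in attached replicate 2, at 17078 and 1746 CPM, and held at least 52415 and 12186 CPM in the other 4. The list of 5 mammary and basal epithelial miRNAs summed to 434095 to 516855 CPM in attached and 461879 to 470448 CPM in detached cells, most of it miR-21-5p (350157 to 419924 CPM), which many cell types express. Among its other members, miR-31-5p was also lowest in attached replicate 2 (817 CPM), whereas miR-141-3p was highest there (21962 CPM). In that library miR-21-5p lay within the range of the other 4. The muscle-defining miR-133a-3p and miR-133b had 0 counts in all 5 libraries. Another muscle marker, miR-1-3p, was not absent: it reached 11.6 CPM (183 reads) in detached replicate 1, and no other library exceeded 17 reads. For miR-206 a single read was found, also in detached replicate 1. Levels come from bulk RNA, in which more cells that carry a miRNA and more of it per cell cannot be told apart.

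miR-203a-3p, the guide, was a scarce miRNA in attached cells and a moderately abundant one in detached cells. It had 78, 61 and 75 counts in attached replicates 1, 2 and 3, and 1910 and 505 counts in detached replicates 1 and 2. As levels these are 6.42, 6.93 and 7.27 CPM for the attached cultures, and 121 and 47.9 CPM for the detached ones. The 3 attached libraries lay close together, attached replicate 2 included, and the groups did not overlap: the lower detached library held 6.60 times the level of the highest attached one. Exact 95% Poisson intervals ran from 5.07 to 9.11 CPM over the attached libraries. In detached replicate 1 the interval was 116 to 126 CPM, and in detached replicate 2 it was 43.9 to 52.3 CPM. These intervals, like those below, hold the error of counting alone: without molecular identifiers, reads cannot be taken as independent molecules.

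The mean level of miR-203a-3p was 6.87 ± 0.427 CPM (SD, n = 3) with attachment and 84.4 ± 51.6 CPM (SD, n = 2) without. The ratio was 12.3, or 3.62 on the log2 scale. Its size depended on which detached library was used. Without detached replicate 1 the ratio was 6.98, and without detached replicate 2 it was 17.6. Leaving out an attached library gave 11.9 to 12.7. The detached libraries thus differed from each other by 2.52 times, far beyond their counting intervals, whereas the attached ones differed by at most 1.13 times. By rank, miR-203a-3p stood between 327th and 384th among the miRNA rows with a count in the attached libraries, and 148th and 230th in the detached ones.

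miR-203a-5p, the passenger, was at or near the limit of detection in attached cells. It had 2, 0 and 2 counts in attached replicates 1, 2 and 3, against 113 and 107 counts in the detached replicates. All 3 attached libraries were below a floor of 3 counts, which corresponds to 0.247, 0.341 and 0.291 CPM. The detached libraries held 7.15 and 10.2 CPM, with intervals of 5.90 to 8.60 and 8.32 to 12.3 CPM. The groups did not overlap, and, unlike the guide, the passenger was higher in detached replicate 2 than in detached replicate 1, by 1.42 times.

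Over pooled counts, 4 in attached and 220 in detached libraries, the level of miR-203a-5p in detached cells was 65.3 times that in attached cells (exact 95% counting interval 25.2 to 242). The ratio of the group means was 72.5, and leaving out 1 library gave values from 48.3 (without attached replicate 2) to 105 (without attached replicate 3). The point ratio of the passenger exceeded that of the guide, but its attached level rests on 4 reads.

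**Figure D1:**
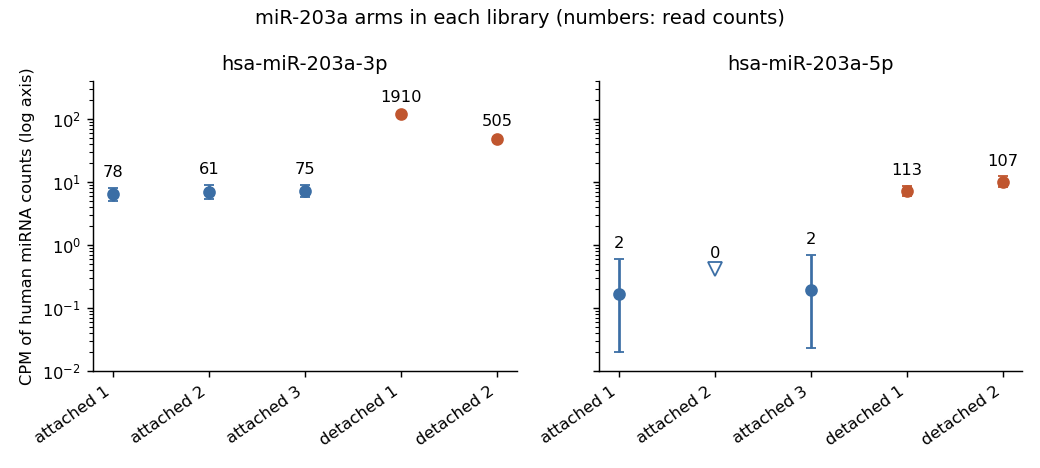
Levels of miR-203a-3p (left) and miR-203a-5p (right) in each library, in CPM of human miRNA counts on a log axis, with exact 95% Poisson intervals and the read count above each point. The open triangle is the upper limit for a count of 0. Both detached libraries lie above all 3 attached libraries for both arms, and the order of the detached libraries is opposite in the 2 panels.

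Both miR-203a rows thus had both detached libraries above all 3 attached ones. Among the 697 tested rows 18.1% did so and 8.75% lay the other way, and since the arms were selected on this contrast, nothing is read from their count. The authors' deposited table gives log2 fold changes of 3.10 (SE 0.752) for hsa-miR-203a-3p and 4.71 (SE 0.913) for hsa-miR-203a-5p. In the plot of group means, both arms lie well above the diagonal, miR-203a-5p among the scarcest rows on the attached axis.

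**Figure D2:**
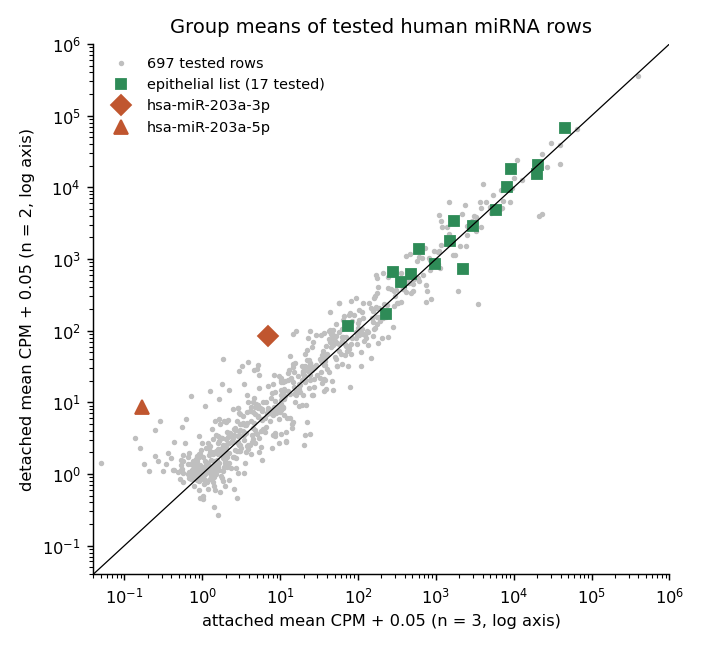
Mean CPM in detached (n = 2) against attached cells (n = 3) for the 697 tested human miRNA rows, each with 0.05 added, on log axes, with the line of equal levels. miR-203a-3p (6.87 and 84.4 CPM) and miR-203a-5p lie above the line, while the epithelial list described below lies along it at higher levels.

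The antisense hairpin gave next to no reads. miR-203b-3p had 1 count in detached replicate 2 and 0 in the other 4 libraries. miR-203b-5p had 1 count in detached replicate 1 and 0 in the other 4. By the exact 95% intervals, a count of 0 allows up to 0.234 to 0.419 CPM in these libraries. A level of either miR-203b arm within these limits was not detectable at this depth. With the guide at 1910 counts in detached replicate 1, the antisense miR-203b-5p held 1. The 17 rows for miR-203 of other species had 0 counts in all.

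The balance of the arms can be read within a library, where the scaling to library size cancels. A difference in size selection does not cancel: the 5p arm is annotated at 25 nt, above the selected range, and the 3p arm at 22 nt. Its part in the shares was not tested. The 5p share of all miR-203a counts was 2 of 80 (2.5%) in attached replicate 1, 0 of 61 in attached replicate 2 and 2 of 77 (2.60%) in attached replicate 3. In the detached libraries the share was 113 of 2023 (5.59%) in replicate 1 and 107 of 612 (17.5%) in replicate 2.

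Exact (Clopper-Pearson) 95% intervals place these shares apart only in part. In attached replicates 1 and 3 they reached 8.74% and 9.07%, and in attached replicate 2, where the count was 0, they allow up to 5.87%. All 3 contained the share of detached replicate 1, whose interval was 4.63% to 6.68%. In detached replicate 2 the interval was 14.6% to 20.7%, above those of all other libraries. The guide was thus 16.9 times as abundant as the passenger in detached replicate 1 and 4.72 times in detached replicate 2. The mean share was 1.70% ± 1.47 in attached (SD, n = 3) and 11.5% ± 8.41 in detached cells (SD, n = 2), a difference of 9.84 percentage points that was 15.8 without detached replicate 1 and 3.89 without detached replicate 2.

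**Figure D3:**
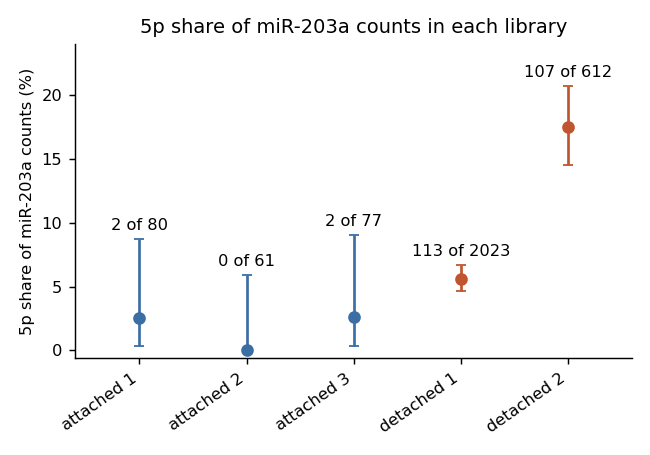
The 5p share of all miR-203a counts in each library in percent, with exact 95% intervals and the counts behind each share. Detached replicate 2 (17.5%) lies above the other 4 libraries, and the interval of detached replicate 1 overlaps those of the attached libraries.

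Arm shares moved in many hairpins of these libraries. For 173 hairpins at least 50 counts of both arms together were present in every library, a limit set after seeing the data so that it admits miR-203a. Of these, 28.3% had shares of the scarcer arm that did not overlap between the groups. The log2 ratio of scarcer to major arm, with 0.5 added to each count, changed by 2.46 between the group means for miR-203a, the 8th largest change, against a median of 0.89 in either direction. Both arms were selected on this contrast, and the attached ratios of miR-203a depend on the 0.5 added, so nothing is read from this place. Between the 2 detached libraries the log2 ratio of miR-203a differed by 1.84, the 14th largest gap, against a median of 0.60. A wide gap between detached replicates therefore accompanied the change between the groups.

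The annotated length of the passenger sets it apart from most rows. Of the 603 tested rows with a RefSeq sequence, 9 (1.49%) are annotated as longer than the 24 nt of the size selection, and miR-203a-5p is among them. The other 8 summed to 356, 116 and 311 CPM in attached replicates 1, 2 and 3, and to 585 and 642 CPM in the detached replicates. Most of this was miR-224-5p, which held 336, 97.9 and 284 CPM with attachment and 558 and 563 CPM without. miR-1248 went from 4, 0 and 4 counts in attached to 34 and 92 counts in detached libraries, and miR-652-5p from 37, 24 and 83 to 158 and 487 counts. Of the other 8, 4 had both detached libraries above every attached one and 1 (miR-4728-3p) had both below, against 18.1% and 8.75% of all tested rows, and 3 overlapped. These rows were looked up after the length of miR-203a-5p was seen, and the part of length in its counts was not tested.

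The rows whose course over the 5 libraries was most like that of miR-203a-3p were found by the root mean square difference of log2 levels, each centred on its own mean. The nearest was miR-4787-3p, at a distance of 0.47 log2 units. Its attached libraries held 1.97, 2.16 and 2.33 CPM and its detached ones 16.5 and 12.7 CPM. miR-145-5p, best known from smooth muscle, followed at 0.52. Its attached libraries held 0.905, 0.681 and 0.388 CPM and its detached ones 16.9 and 7.69 CPM. Then came miR-6887-3p (0.65), miR-6510-3p, whose hairpin overlaps the keratin gene KRT15 (0.68), and miR-3141 (0.69). The median distance of all tested rows was 1.81, and miR-203a-5p, the partner arm, ranked 124th at 1.52.

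For miR-203a-5p the nearest rows were themselves at or near 0 in attached cells. miR-6751-3p was closest (0.77), with 2, 0 and 1 counts in attached and 27 and 47 counts in detached libraries. miR-1248 (0.94), miR-3178 (1.00), miR-665 (1.26) and miR-663a (1.27) followed. miR-203a-3p ranked 11th from this side, and the median distance was 2.82. Like the passenger, all 5 had a higher CPM in detached replicate 2 than in detached replicate 1. The rows were picked for likeness over these same libraries, so nothing is read from this shared order. With so few attached reads these distances depend on the 0.5 added to each count.

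The closest rows of each arm are printed so that their seeds, in capitals, can be set beside those above; none of the 3 seeds is that of a miR-203 arm.
hsa-miR-4787-3p: gAUGCGCCgcccacugccccgcgc
hsa-miR-145-5p: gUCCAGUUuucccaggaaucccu
hsa-miR-6751-3p: aCUGAGCCucucucucuccag

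Base composition also differed. GC content was 40.9% in miR-203a-3p and 36% in miR-203a-5p, against a median of 50% over the 603 rows. It was 83.3% in miR-4787-3p and 90.9% in miR-663a, and 37.0% in miR-1248.

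**Figure D4:**
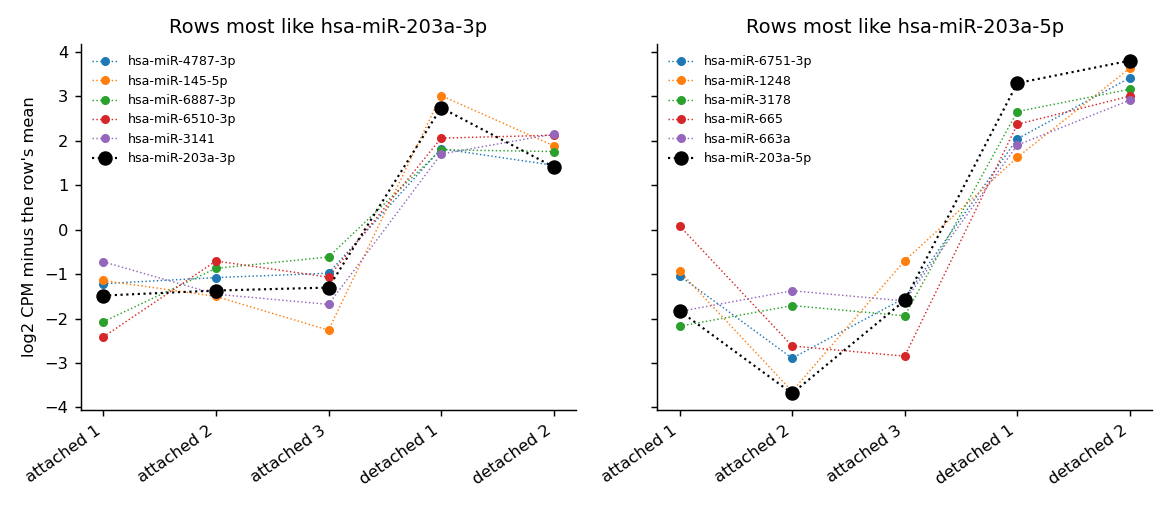
log2 CPM (0.5 added to each count) minus the row's own mean over the 5 libraries, for miR-203a-3p (left) and miR-203a-5p (right) in black and the 5 rows most like each in colour. Dotted lines only join the points of 1 row, since replicates have no order. In every row shown both detached libraries lie above the attached ones. The rows were picked for likeness to arms selected as higher in detached cells, so nothing is read from this.

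Markers of other cell types were counted beside these levels. The fibroblast and smooth muscle list (5 of 5 with counts) summed to 4.46 to 11.9 CPM with attachment, and to 57.8 and 18.3 CPM in detached replicates 1 and 2. Most of it was miR-143-3p and miR-145-5p. miR-143-3p held 3.13, 10.6 and 2.42 CPM in attached replicates 1, 2 and 3, and 39.4 and 9.21 CPM in the detached replicates. Its groups thus overlapped, with attached replicate 2 above detached replicate 2. miR-145-5p held 0.905, 0.681 and 0.388 CPM with attachment, and 16.9 and 7.69 CPM without. The other 3 members were scarce: miR-199a-3p, counted jointly with miR-199b-3p, had at most 16 counts, miR-199a-5p at most 9 and miR-214-3p at most 2 in any library. The muscle list (2 of 4 with counts) summed to 0 to 1.40 CPM with attachment, and to 11.7 and 0.0949 CPM without, almost all of it miR-1-3p. The blood list (6 of 6) summed to 1.36 to 16.8 CPM in attached and to 18.7 to 19.5 CPM in detached libraries. The lists of endothelium (9.65 to 34.6 against 23.1 to 34.2 CPM) and neuron (5.84 to 7.75 against 4.18 to 10.1 CPM) overlapped between the groups, as did miR-122-5p of liver, which had at most 8 counts. The part of such cells or RNA in the levels of miR-203a was not tested.

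The tested miRNAs nearest to MIR203A on chromosome 14 were scarce. On one side the nearest hairpin with a tested row was MIR410, 3.05 Mb away. The attached counts of miR-410-3p were 32, 0 and 10 and the detached counts 6 and 13, with a log2 fold change of -0.88 (SE 1.19) and an adjusted p of 0.884 by edgeR. On the other side, 1.03 Mb away, lay MIR6765. Those of miR-6765-3p were 9, 8 and 11 and then 15 and 13, with a log2 fold change of 0.01 (SE 0.62) and an adjusted p of 0.992 by edgeR. As CPM, the groups overlapped for both rows, as they did for most tested rows, and the fit called 0% of all rows in either direction.

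Other miRNAs of epithelial differentiation lay on both sides of 0, and none was called. A list of 18 such miRNAs, miR-203 excluded, had 17 tested members, and edgeR's quasi-likelihood test called 0 of them higher and 0 lower in detached cells at Benjamini-Hochberg adjusted p under 0.05. Over all 697 rows it also called 0 (0%) higher and 0 (0%) lower, with 33 higher and 16 lower at unadjusted p under 0.05, of which 0 belonged to the list. On the same 697 rows DESeq2 called 11 higher and 1 lower and limma-voom 0 in either direction, and neither called a list member. The log2 fold change was positive for 10 of the 17 and negative for 7. Its median was 0.04, against -0.04 over all tested rows. By CPM, 4 of the 17 had both detached libraries above and 1 had both below all attached ones, against 18.1% and 8.75% of all rows.

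The miRNAs of stratified epithelium include miR-205-5p, a marker of basal cells, and miR-125b-5p, which is known to restrain differentiation in skin stem cells. Of 9 tested, 4 were positive. For miR-205-5p the attached libraries held 60959, 17078 and 56804 CPM, and the detached ones 52415 and 82383 CPM. Its log2 fold change was 0.38 (SE 0.56), with an adjusted p of 0.884 by edgeR. The mean of miR-125b-5p was 20681 ± 10250 CPM (SD, n = 3) with attachment and 20201 ± 5272 CPM (SD, n = 2) without, and its log2 fold change was -0.17 (SE 0.56). The smallest p in the list belonged to miR-24-3p, which promotes keratinocyte differentiation. Its attached libraries held 788, 5125 and 741 CPM and its detached ones 636 and 823 CPM. The log2 fold change was -2.10 (SE 1.09; adjusted p 0.707 by edgeR) with all libraries and -0.19 (SE 0.47) without attached replicate 2.

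The miR-200 family restrains ZEB1 and ZEB2, which would otherwise silence E-cadherin. Of its 5 members, 4 were positive and 0 were called, against 340 positive and 0 called among all 697 rows. By CPM, 3 members had both detached libraries above all attached ones, against 18.1% of all tested rows. For 1, miR-141-3p, both lay below, against 8.75% of all tested rows. Whether the family differs from other rows was not tested. The attached libraries held 474, 114 and 256 CPM of miR-200b-3p and the detached ones 683 and 614 CPM. Its log2 fold change was 1.01 (SE 0.68; adjusted p 0.765 by edgeR). miR-141-3p stood at 18048, 21962 and 18784 CPM with attachment and at 12879 and 17311 CPM without. Its log2 fold change was -0.69 (SE 0.52; adjusted p 0.773 by edgeR). Of the 3 sensory and secretory epithelial miRNAs, miR-96-5p, miR-182-5p and miR-183-5p, 2 were positive, with a median of 0.02.

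Without attached replicate 2, edgeR called 22 of 679 rows higher (3.24%) and 1 lower (0.147%), and again 0 of the 17 list members. In that fit 8 of the 17 were positive, with a median of -0.03, and the smallest adjusted p in the list was 0.655. The library left out is the one that deviated most in these same data, so adjusted p from this fit may be too small. The levels of miR-203a-3p barely moved without it, with a ratio of 12.3 either way, while the ratio of miR-203a-5p went to 48.3.

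**Figure D5:**
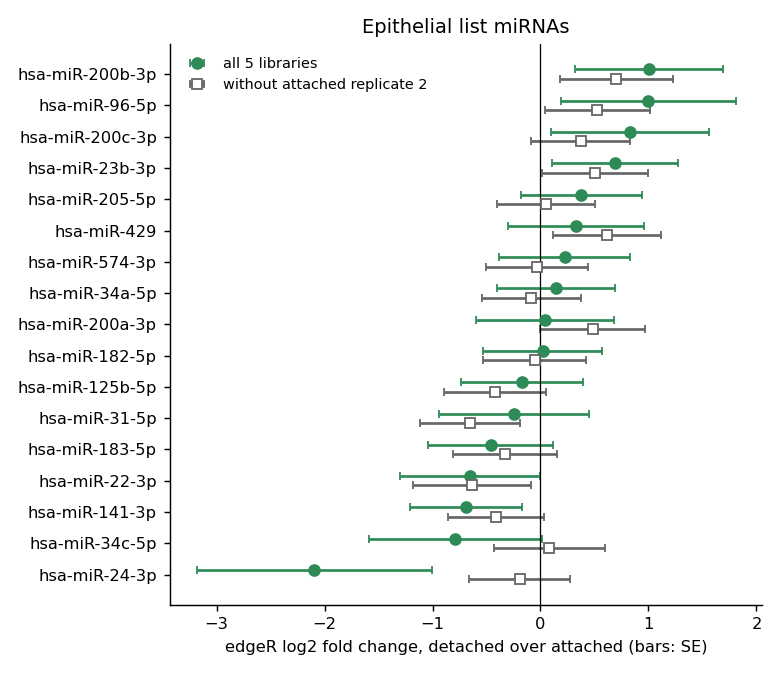
edgeR log2 fold changes, detached over attached, with standard errors for the 17 tested miRNAs of the epithelial list, from all 5 libraries (filled circles) and without attached replicate 2 (open squares). The values lie on both sides of 0, from -2.10 (miR-24-3p) to 1.01 (miR-200b-3p) with all libraries.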

How the data were processed

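The authors deposited raw read counts per named small RNA, 1 table per library (per the values: whole numbers with different totals), and a comparison table with log2 fold changes and standard errors, per the file header. Genome build hg38 and DESeq2 are named in the submitters' processing notes without role or version. Neither the aligner, nor the counter, nor how reads with several matches were treated is given in the sources used here. The 5 columns of per-library values in the comparison table were not used.

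Levels are counts per 1000000 counts of human miRNA rows, with no further scaling. Exact intervals came from SciPy 1.17.1. All human miRNA rows were fitted in R 4.3.3 by the quasi-likelihood F test of edgeR 4.0.16 (TMM; filterByExpr, min.count 10, min.total.count 15; two-sided, Benjamini-Hochberg over all 697 rows), checked on simulated data. A standard error is the size of the log2 fold change over √F. Groups came from the sample titles. No library repeated another: replicates gave a chi-square of 606 to 3834 per degree of freedom. Hairpins were folded with RNAfold 2.7.2.

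The members, lists and tests were chosen with earlier results of these data known. Named rows were the members, rows that share a seed, the 5 nearest in course to each arm, the nearest tested hairpin on each side, and the 3 smallest p and 3 highest levels of the list. Any other row was picked with its values in view. As alternatives, DESeq2 1.42.0, limma-voom 3.58.1, other scalings and filters, a replicate block and the omission of each library were tried.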

Additional observations from a re-analysis of the deposited data

How the results depend on the processing

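The log2 ratio of miR-203a-3p kept its direction in all 10 alternatives and moved by more than the spread between replicates in 1. Leaving out each library gave 2.80 (without detached replicate 1) to 4.14, and other scalings and summaries 3.42 to 3.62. That of miR-203a-5p was 6.18, with 5.59 to 6.72 when each library was left out and 5.72 to 6.17 otherwise. The difference in 5p share (9.84 points) ran from 3.89 to 15.8 when each library was left out, and was 6.51 over pooled counts. The 0 calls in the epithelial list, higher and lower, stood in every alternative, but most alternatives called 0 of all rows too. A 0 in the list therefore does not show that its members stayed level.

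Over all rows, 0 higher and 0 lower became 12 higher and 0 lower with DESeq2, which also changed the filter (1918 rows entered that fit). DESeq2 on the same 697 rows, added after seeing the data, called 11 higher and 1 lower. edgeR without the low-count filter called 14 higher and 5 lower. Leaving out each library gave 0 to 22 higher and 0 to 1 lower, the upper values without attached replicate 2. Without TMM the median log2 fold change of all rows was 0.20 in place of -0.04 and that of the list 0.30 in place of 0.04. The labels number replicates 1 and 2 in both groups without saying that a number marks a shared culture. Their deviations from the group means correlated at -0.18 (replicate 1) and -0.15 (replicate 2). Around their own mean, detached replicates 1 and 2 deviate by equal and opposite amounts, so these correlations are not separate checks of pairing. The fit with a replicate block called 0 higher and 0 lower (36 and 5 at unadjusted p under 0.05), with 0 in the list. A fit without 1 detached library assumes that the lone one varies like the attached libraries. Depth limits miR-203a-5p in attached cells, where 4 reads carry its level, and both miR-203b arms.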
